A study of Mus musculus with 17 samples.

Results

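Neuronal calcium-binding proteins were followed in laser-captured hippocampal tissue of mice lacking FOXO1, FOXO3 and FOXO4 in the brain. The 9 genes are the cytosolic calcium buffers Calb1, Calb2 and Pvalb and the neuronal calcium sensors Hpca, Hpcal1, Hpcal4, Ncald, Vsnl1 and Ncs1. Every probe set that the array annotation gives to one of these symbols alone was taken, which made 18 of the 45037 mouse probe sets and 9 of the 18193 genes with a probe set of their own (4 for Calb1, 3 each for Ncald and Ncs1, 2 each for Hpca and Vsnl1, and 1 for each of the others). A probe set is a group of short probes that together read 1 transcript or a stretch of it. The rule reads the symbols alone, but the genes were chosen with earlier results of these data known.

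The KO group held 8 samples of FOXO 1/3/4 KO mice, in which floxed Foxo1, Foxo3 and Foxo4 had been deleted by hGFAP-cre, and the WT group 7 samples of mice that kept the 3 genes. hGFAP-cre acts in a progenitor shared by neurons and glia, so the deletion covers both, and by the study's methods the mice were of a mixed FVB and B6 background. A KO sample with the mark 433 and a WT sample with the mark 437 also carry the mark CA13, whose meaning no source used here gives, and these 2 samples stayed outside both groups. The labels give brain as the tissue, the dentate gyrus comes from the methods, and no source used here gives the age or sex of these samples, nor says outright that each mark is an animal. The p-values therefore measure the spread between these samples, part of which may be technical. Each title also ends in 1 of 2 numbers and a letter, and no source used here says what the numbers count. By them, 11 of the 15 samples without the CA13 mark (6 KO and 5 WT) fall into a larger label series and 4 (KO 390 and 391, WT 392 and 393) into a smaller one, and whether these are batches of arrays is not known.

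Calcium that enters a neuron is bound within moments by proteins with EF-hand loops. Calbindin, calretinin and parvalbumin, the products of Calb1, Calb2 and Pvalb, are mainly buffers that shape how far and how long a calcium signal spreads, and they are the classic stains by which hippocampal cell types are told apart: calbindin fills mature granule neurons and their mossy fibers, calretinin marks young granule neurons, mossy cells of the mouse and some interneurons, and parvalbumin marks fast-spiking basket cells. The neuronal calcium sensors are relatives of recoverin that change shape when they bind calcium, and most carry a fatty acid at their N-terminus through which they reach membranes. Hippocalcin is abundant in hippocampal pyramidal neurons, neurocalcin delta and VILIP-1 (Vsnl1) act on membrane guanylate cyclases among other partners, and neuronal calcium sensor-1 (Ncs1) takes part in neurotransmitter release.

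The genes lie on 5 mouse chromosomes of GRCm38.p6. Calb1 (15881264 to 15906709), Hpcal4 (123183504 to 123194699) and Hpca (129111570 to 129125919) are on chromosome 4, Vsnl1 (11325257 to 11436578) and Hpcal1 (17690750 to 17791944) on chromosome 12, and Ncald (37366175 to 37792519) and Pvalb (78191112 to 78206400) on chromosome 15. Calb2 is on chromosome 8 (110142526 to 110168212) and Ncs1 on chromosome 2 (31245708 to 31295989). No source used here gives the position of the probes within each transcript.

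RefSeq promoter windows of GRCm38.p6, 250 bases before to 50 after a start site, were matched by symbol for 6 of the 9 genes (10 windows). None was matched for Calb1, Calb2 or Ncald, so no letters were searched for these genes. The 250 bases before the start are shown for the 3 windows that sit at the outermost annotated start of their gene. They belong to Hpcal4, whose KO and WT levels lay furthest apart for their spread among the sensors, and to Vsnl1 and Pvalb, which stood high together in the sample marked CA13 of 437. Capitals mark a GC box (GGGCGG) or a POU octamer (ATGCAAAT), searched on both strands. The matches do not overlap.
Hpcal4, chr4:123183254-123183503, plus strand: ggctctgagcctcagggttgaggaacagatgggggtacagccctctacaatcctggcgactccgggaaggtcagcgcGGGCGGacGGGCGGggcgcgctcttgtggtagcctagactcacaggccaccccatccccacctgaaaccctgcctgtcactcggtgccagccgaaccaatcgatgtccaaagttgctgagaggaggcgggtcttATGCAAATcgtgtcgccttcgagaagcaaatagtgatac
Vsnl1, chr12:11436579-11436828, minus strand: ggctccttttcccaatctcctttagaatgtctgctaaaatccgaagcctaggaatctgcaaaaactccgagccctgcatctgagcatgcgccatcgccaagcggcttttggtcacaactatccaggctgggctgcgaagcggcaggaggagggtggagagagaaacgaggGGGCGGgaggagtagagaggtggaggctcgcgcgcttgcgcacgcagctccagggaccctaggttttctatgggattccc
Pvalb, chr15:78206401-78206650, minus strand: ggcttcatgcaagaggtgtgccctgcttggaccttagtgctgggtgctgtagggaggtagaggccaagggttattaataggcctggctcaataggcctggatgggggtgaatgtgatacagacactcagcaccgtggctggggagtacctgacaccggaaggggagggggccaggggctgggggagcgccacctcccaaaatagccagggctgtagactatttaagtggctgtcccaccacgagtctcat
The Hpcal4 sequence holds GC boxes that begin at -173 and -165 from the start site and an octamer at -39, while the Vsnl1 sequence holds a GC box at -80 and the Pvalb sequence none of the letters searched. Over all 32851 windows, 35.7% held a GC box and 1.74% the octamer, and of the 10 windows of these genes 6 and 1 did. The letters GTAAACA, to which FOXO factors can bind, were in 0 of the 10 windows, against 3.65% of all windows. At that share, 10 windows are too few for a count of 0 to show a lack. The E-box CAGCTG was in 1 of the 10 (a window of Hpca) and in 16.3% of all, and the cAMP response element TGACGTCA was in 0 of the 10 and in 1.79% of all. A match describes these letters only.

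The deposited values are linear signals, 1 for each probe set of an array. The median signal of an array lay between 92.6 and 116.5 in KO and between 88.1 and 112 in WT. The main Foxo1 probe set had a signal of 121 to 658 in KO samples, against 4970 to 19074 in WT samples (log2 fold change -5.08, adjusted p = 1.16e-07 from limma). In the CA13-marked samples it had 833 for 437 (WT), below every unmarked WT sample, and 293 for 433 (KO). A low Foxo1 signal alone therefore does not set KO apart from WT in samples like the CA13-marked one of 437. A set of 12 granule neuron markers, chosen with earlier results of these data known, was read beside the label of the tissue. Their mean log2 level, normalized over the 17 arrays, was 11.40 to 11.54 in KO samples other than the library labelled 433 and 11.26 to 11.63 in WT samples, but 8.36 in the library labelled 433 and 8.40 in the CA13-marked sample of 437. A set of 12 markers of pyramidal neurons of the CA fields, the neighbouring part of the hippocampus, ran the other way, with 7.87 to 8.50 in KO without that library and 7.96 to 8.60 in WT, against 10.09 in the library labelled 433 and 10.14 in the CA13-marked sample of 437. The CA13-marked sample of 433 had 11.57 for granule markers and 7.93 for CA markers. If the mark CA13 is read as the CA fields, the 2 libraries of the mark 433 go against their labels, while those of 437 fit them. The label was kept for each, and values of the 9 genes that the library labelled 433 moves by over 1.5 times are given with and without it.

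Among the main probe sets, that of calbindin set these libraries apart most. This probe set (1417504_at; the main probe set of a gene is the one with the highest mean level) had a signal of 4258 at the lowest, 15441 at the median and 21392 at the highest in the 8 KO samples, against 14768, 18456 and 24195 in the 7 WT samples. The lowest KO value is the library labelled 433, and without it the lowest was 13709.5. The groups overlap: 4 of the 8 KO samples lay below the lowest WT sample, and 1 of the 7 WT samples lay above the highest KO sample. In log2(signal + 32) after quantile normalization the KO level was 13.82 ± 0.72 (SD, n = 8) and the WT level 14.17 ± 0.19 (SD, n = 7). The log2 fold change was -0.35 with a standard error of 0.25 (adjusted p = 1.00, limma), and -0.11 with a standard error of 0.11 without the library labelled 433. In tissue of mixed cells, fewer cells of a type and less RNA per cell cannot be told apart.

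A dimmer Calb1 probe set, 1456934_at, separated the groups further. Its signal was 157 (the library labelled 433), 850.1 at the median and 1294 at the highest in KO samples, against 1084, 1147 and 1700 in WT samples. Of the 8 KO samples, 7 lay below the lowest WT sample, and the sample KO 903 was the exception. KO minus WT was -0.73 on the log2 scale (standard error 0.30, with a 95% confidence interval of -1.37 to -0.09), with an unadjusted p of 0.0273 and an adjusted p of 1.00 over all 45037 probe sets (limma). An exact permutation test over all 6435 assignments of the 2 labels gave p = 0.00497 (two-sided, unadjusted, 1 of 18 probe sets so tested). Without the library labelled 433 the log2 fold change was -0.44 (standard error 0.14, interval -0.73 to -0.15, unadjusted p = 0.00557), and without the WT sample 437, the brightest in WT, it was -0.65 (unadjusted p = 0.0582). The remaining Calb1 probe sets had log2 fold changes of -0.44 (1458836_at, standard error 0.30) and -0.71 (1448738_at, standard error 0.37), and of -0.14 and -0.43 without the library labelled 433. All 4 thus had negative values, with and without that library, and none passed the test over all probe sets.

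Calretinin varied most among the main probe sets of the buffers. The only Calb2 probe set (1451129_at) had a signal of 118, 201 and 823 (lowest, median, highest) in KO samples, against 30.6, 254 and 565 in WT samples. The lowest WT sample, 206, lay below every KO sample, and the KO samples 384 and 386 lay above every WT sample. The coefficient of variation over the 7 WT samples was 62.7%, against 15.5% for the main Calb1 probe set. The log2 fold change was 0.06 with a 95% confidence interval of -0.91 to 1.03, so that a change of nearly 2-fold in either direction lies within the interval. It was 0.15 (standard error 0.48) without the library labelled 433. Markers of cells that carry calretinin had list means with overlapping ranges in both groups: 3 mossy cell markers had a mean log2 level of 6.94 to 7.36 in KO and 6.90 to 7.33 in WT, and 6 markers of newborn neurons 7.94 to 9.16 in KO (8.37 to 9.16 without the library labelled 433) and 8.64 to 9.42 in WT. By the main probe set of each, all 6 newborn neuron markers had negative log2 fold changes, with and without that library (median -0.23 and -0.15). Among their other probe sets, that of Draxin had 0.10. Of the 6, 1 had an unadjusted p under 0.05, against 1.68% of all probe sets lower in KO (1.76% without that library). This was Sox11 (-0.67, unadjusted p = 0.0212, and -0.46, unadjusted p = 0.0261 without that library, adjusted p = 1.00 in limma). Its main probe set was the lowest of 6, which ran up to -0.11. The part of these cells in the spread of Calb2 was not tested.

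Parvalbumin had a signal of 328, 372 and 799 (lowest, median, highest) in KO samples, against 242, 316 and 472 in WT samples. The highest KO value is the library labelled 433, and the highest without it was 493. On the log2 scale the fold change of the only Pvalb probe set (1417653_at) was 0.23 (standard error 0.20), and 0.09 (standard error 0.16) without that library. The mean log2 level of 11 interneuron markers was 8.45 to 9.18 in KO samples, with 9.18 in the library labelled 433, and 8.59 to 9.12 in WT samples. No signal in the table is 0, so every marker has a value above 0 in every sample, and the part of interneurons in the Pvalb signal was not tested.

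**Figure D1:**
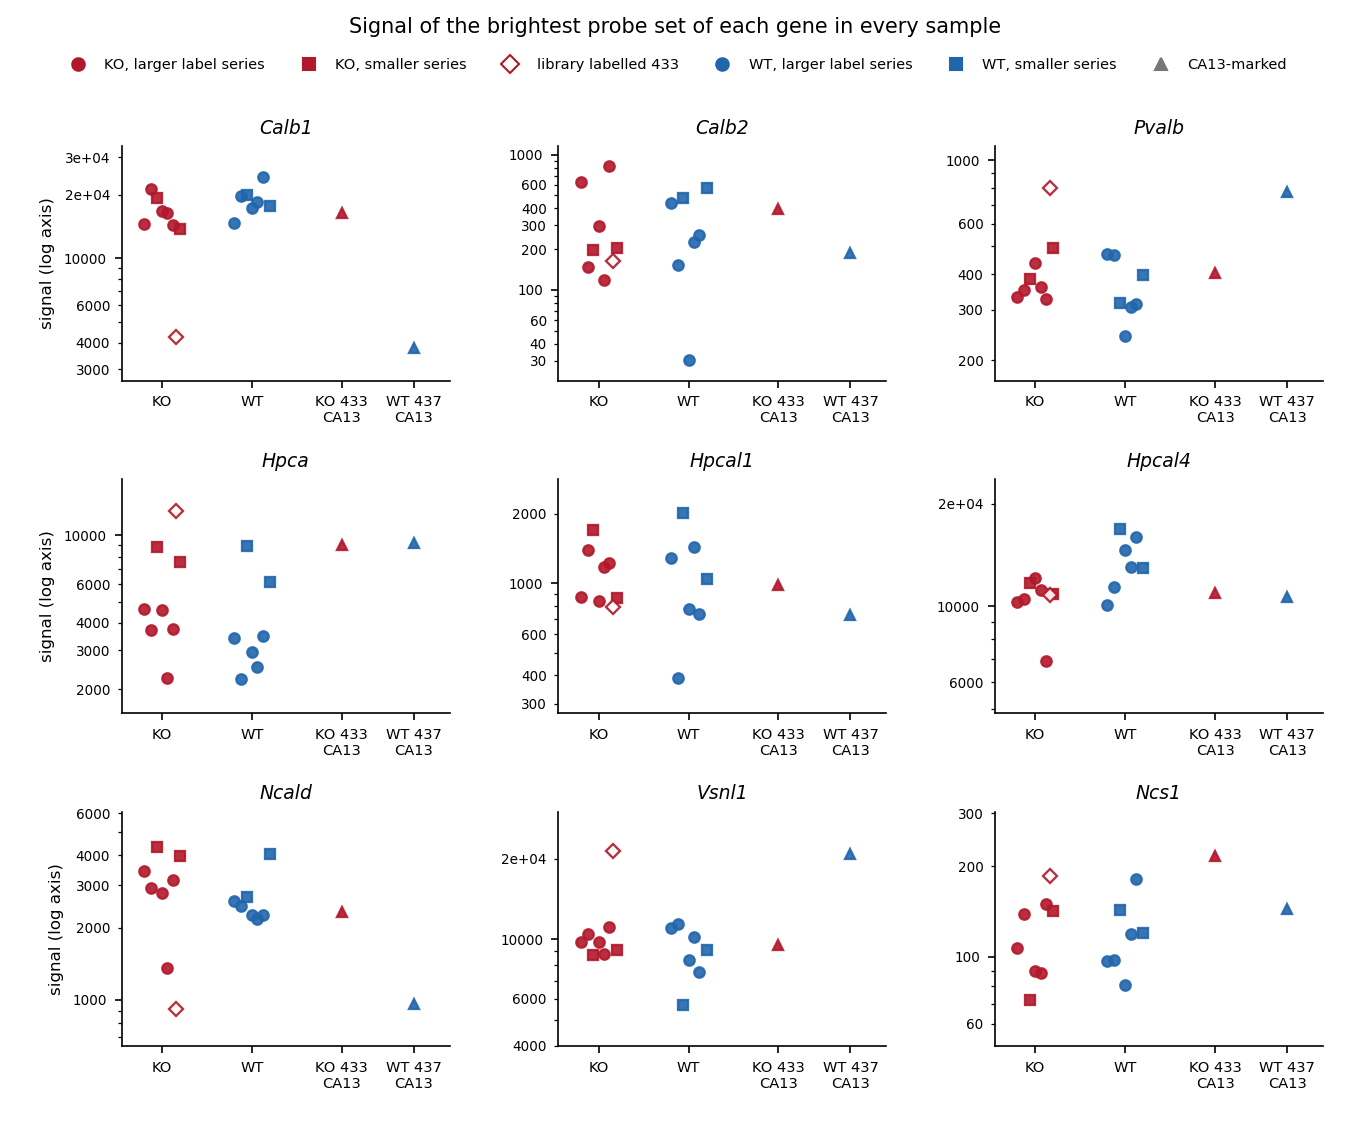
Deposited signal (log axis) of the main probe set of each of the 9 genes in 8 KO samples, 7 WT samples and the 2 CA13-marked samples, with squares for the smaller label series and an open diamond for the library labelled 433. The library labelled 433 and the CA13-marked sample of 437 lie together in Calb1 (4258 and 3782), Pvalb (799 and 777), Ncald (914 and 962) and Vsnl1 (21351 and 20851).

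Among the sensors, Hpcal4 stood lowest in KO relative to WT. Hpcal4 encodes VILIP-2, a close relative of hippocalcin. The only Hpcal4 probe set (1433987_at) had a signal of 6936, 10847 and 12134 (lowest, median, highest) in KO samples, against 10112, 13049 and 16868 in WT samples. Here 5 of the 7 WT samples lay above every KO sample, and the 2 others, WT 385 and WT 41, lay among the KO samples. The normalized log2 level was 13.37 ± 0.25 (SD, n = 8) in KO and 13.68 ± 0.23 (SD, n = 7) in WT. On the log2 scale KO minus WT was -0.31 (standard error 0.13), and its 95% confidence interval ran from -0.58 to -0.04, with an unadjusted p of 0.0255 and an adjusted p of 1.00 (limma), and the exact permutation test gave an unadjusted, two-sided p of 0.0208. Without the library labelled 433 it was -0.30 (standard error 0.13). It was -0.23 without the KO sample 384 (unadjusted p = 0.0503) and -0.27 without the WT sample 437 (unadjusted p = 0.0622).

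Hippocalcin had positive log2 fold changes and a wide spread. The main Hpca probe set (1450930_at) had a signal of 2241, 4601 and 12874 (lowest, median, highest) in KO samples, against 2216, 3398 and 8972 in WT samples. By deposited signal, the library labelled 433 was the only KO sample above the highest WT sample, while after normalization KO 390 was also above it (13.12 in KO 390, against 13.07 in WT 392). The log2 fold change of this probe set was 0.49 (standard error 0.33, interval -0.22 to 1.19), and 0.32 (standard error 0.31) without that library. The dimmer probe set, 1425833_a_at, had 79.5, 186 and 382 in KO samples, against 8.49, 68.6 and 395 in WT samples, and a log2 fold change of 0.72 (standard error 0.39) with the library labelled 433 and 0.71 (standard error 0.42) without it. Its coefficient of variation over the WT samples was 109%.

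VILIP-1 had its highest KO value in the library labelled 433. The main Vsnl1 probe set (1420955_at) had a signal of 8754, 9745 and 21351 (lowest, median, highest) in KO samples, against 5688, 9089 and 11370 in WT samples, and the highest KO sample without the library labelled 433 had 11083. The log2 fold change was 0.28 (standard error 0.17) with that library and 0.16 (standard error 0.14, interval -0.13 to 0.46) without it. The dimmer Vsnl1 probe set (1450055_at) had 0.19 (standard error 0.20), and 0.10 (standard error 0.19) without that library.

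Neurocalcin delta, hippocalcin-like 1 and neuronal calcium sensor-1 had log2 fold changes close to 0. The main Ncald probe set (1417568_at) had a signal of 914, 3040 and 4342 (lowest, median, highest) in KO samples, against 2168, 2466 and 4049 in WT samples, and its log2 fold change was 0.01 (standard error 0.27). Without the library labelled 433, the dimmest KO sample, it was 0.21 (standard error 0.21). The other Ncald probe sets had 0.12 (1417569_at) and 0.19 (1444466_at), and 0.27 and 0.26 without that library. Hpcal1, whose product VILIP-3 belongs to the same branch as hippocalcin, had a signal of 787, 1023 and 1697 in KO samples, against 389, 1041 and 2024 in WT samples, and KO minus WT was 0.10 on the log2 scale (standard error 0.28; 1448812_at), and 0.15 without the library labelled 433. The main Ncs1 probe set (1434887_at) had 72.1, 123 and 185 in KO samples, against 80.6, 119 and 181 in WT samples, and its log2 fold change of -0.00 (standard error 0.19) had an interval of -0.40 to 0.40. The other Ncs1 probe sets had 0.07 (1450146_at) and 0.06 (1460293_at, whose median signal was 11.2 in KO and 19.2 in WT, far under the median of every array). The 3 Ncs1 probe sets had -0.07, 0.02 and -0.03 without the library labelled 433.

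Over all members, 0 of 18 probe sets passed an adjusted p of 0.05 in limma, against 6 of all 45037 (0.0133%). At an unadjusted p under 0.05 there were 2 lower in KO (Calb1 1456934_at and Hpcal4), against 1.68% of all probe sets, and 0 higher, against 1.54%. The log2 fold change was negative for 6 and positive for 12 probe sets, between -0.73 and 0.72, with a median of 0.07, against a median of 0.00 over all probe sets. Without the library labelled 433, again 2 were lower (1.76% of all probe sets) and 0 higher (1.73%). With the label series as a term there were 3 lower (2.04% of all probe sets), with Calb1 1448738_at added, and 2 higher (1.93%), both of Hpca. Over all 29 alternatives the count ranged from 0 to 3 lower and from 0 to 2 higher, and at an adjusted p of 0.05 it was 0 in each. The fit without the library labelled 433 is among them both by that name and as a single sample left out. KO and WT overlapped in all 18, as in all but 13 (0.0289%) of the 45037. An adjusted p of 1.00 does not show that the groups are alike.

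**Figure D2:**
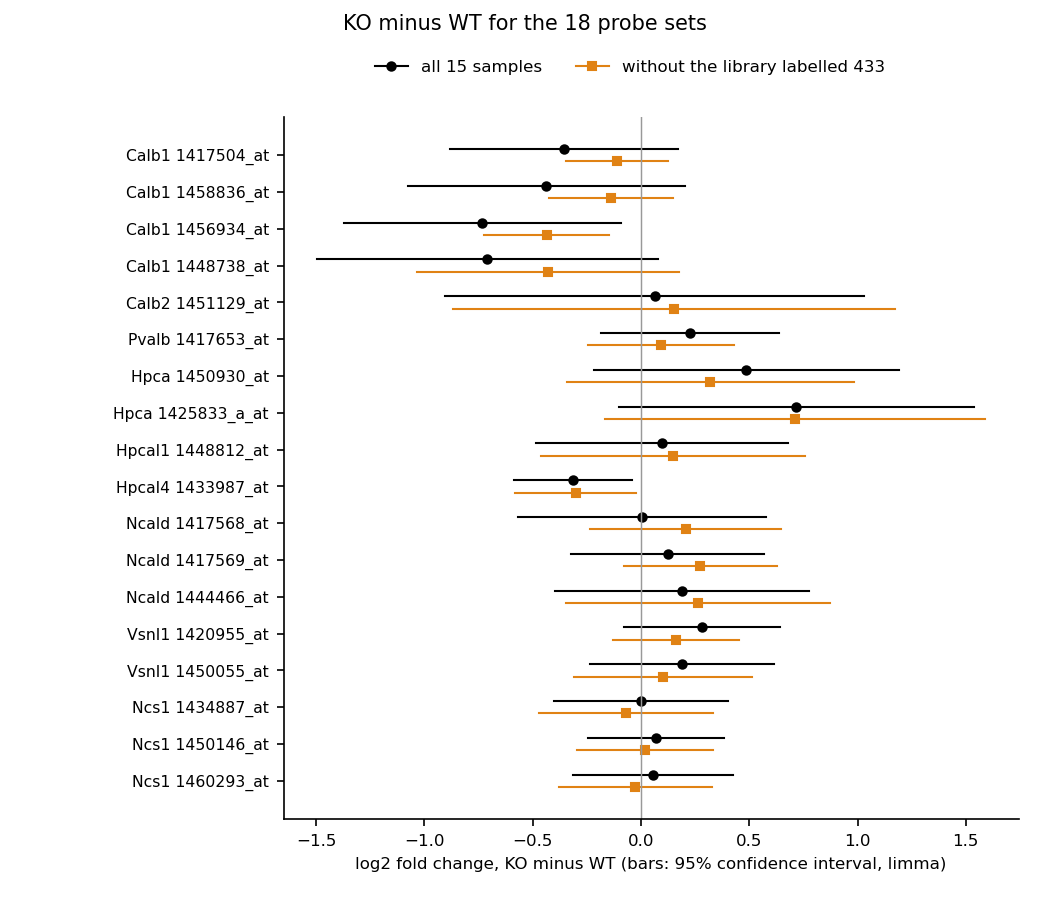
Log2 fold change, KO minus WT, of the 18 probe sets with the 95% confidence interval from limma, over all 15 samples (black circles) and without the library labelled 433 (orange squares). The intervals of Calb1 1456934_at and Hpcal4 lie below 0 in both fits, and the Calb1 values move towards 0 without that library.

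The CA13-marked sample of 437 was set beside the unmarked WT sample of the same mark. This is 1 sample against 1, with no replicate check and no p-value, and the 7 unmarked WT samples give the only spread. Calbindin was far dimmer in the CA13-marked sample, with a signal of 3782, against 24195 in the unmarked sample and at least 14768 in every WT sample. The log2 difference, CA13-marked minus unmarked and normalized over all 17 arrays, was -2.66 for the main Calb1 probe set and -2.35, -3.08 and -3.03 for the others. Neurocalcin delta followed in the same direction, with a signal of 962 in the CA13-marked sample, against 2255 in the unmarked one, and log2 differences of -1.16, -0.97 and -2.05. VILIP-1, parvalbumin and the main hippocalcin probe set lay the other way. Vsnl1 had a signal of 20851 in the CA13-marked sample and 7554 in the unmarked one (1.34 on the log2 scale; 0.20 for the dimmer probe set), and Pvalb had 777 in the CA13-marked sample and 314 in the unmarked one (1.27). Hpca had 9261 in the CA13-marked sample and 3490 in the unmarked one (1.34; 0.02 for the dimmer probe set). Hpcal4 had -0.68, Calb2 -0.40 and Hpcal1 0.02, and the Ncs1 probe sets lay between -0.40 and 0.18. These values rest on 1 unmarked sample. Against the mean of the 7 WT samples the main Ncs1 probe set had 0.19, against -0.31 with the unmarked sample of 437 alone, Hpcal4 had -0.39 and the main Calb1 probe set -2.29.

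In total, 6 of the 18 probe sets were at least 2-fold lower in the CA13-marked sample of 437, against 6.61% of all probe sets, and 3 were at least 2-fold higher, against 6.55%. The 6 were the 4 of Calb1, Ncald 1417568_at and Ncald 1444466_at, so they come from Calb1 and Ncald alone. Of the 18 probe sets, 16 lie above the median level of all probe sets, so the shares rest on dimmer probe sets too. Set beside the WT range, 8 lay below every WT sample (14.3% of all probe sets) and 4 above (16.3%). The 8 were the 4 of Calb1, the 3 of Ncald and Hpcal4, and the 4 were Pvalb, Hpca 1450930_at and both of Vsnl1. The level of Hpca in this sample, 13.10, was only just above the highest WT sample, at 13.07, and that WT sample is of the smaller label series. Likewise Hpcal4, at 13.30, was only just below the lowest WT sample, at 13.33. In the same sample 11 of the 12 granule markers lay below the WT range and 9 of the 12 CA markers above it. The interneuron markers had a mean of 9.09, within the WT range of 8.59 to 9.12, so that Pvalb stood above the WT range where the interneuron list as a whole did not, although 2 of its 11 genes did.

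The pair of the mark 433 ran opposite. Calb1 had a signal of 16386 in the CA13-marked sample, against 4258 in the library labelled 433, with log2 differences of 1.88, 1.80, 2.04 and 3.09 for its 4 probe sets. Ncald had 1.33, 0.83 and 0.68, Pvalb -1.05, and Vsnl1 -1.01 and -0.52. Calb2 had 1.11, and the main Hpca probe set -0.36, with a signal of 9041 in the CA13-marked sample, against 12874 in the library labelled 433. Here 6 probe sets were at least 2-fold higher in the CA13-marked sample (5.94% of all probe sets) and 2 at least 2-fold lower (6.05%). The library labelled 433 lay below the WT range for 7 probe sets (15% of all) and above it for 6 (15.8%). The CA13-marked sample of 433 also lay above the WT range for the main Hpca probe set. Its level was 13.16, against 13.10 in the CA13-marked sample of 437. All Ncs1 probe sets were above the WT range in it as well. Calb1 1458836_at and 1456934_at were below it, and 1417504_at only just (13.98, against 13.99 in the lowest WT sample). Whether the 2 libraries of 433 were exchanged cannot be read from the labels, and no sample was moved.

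**Figure D3:**
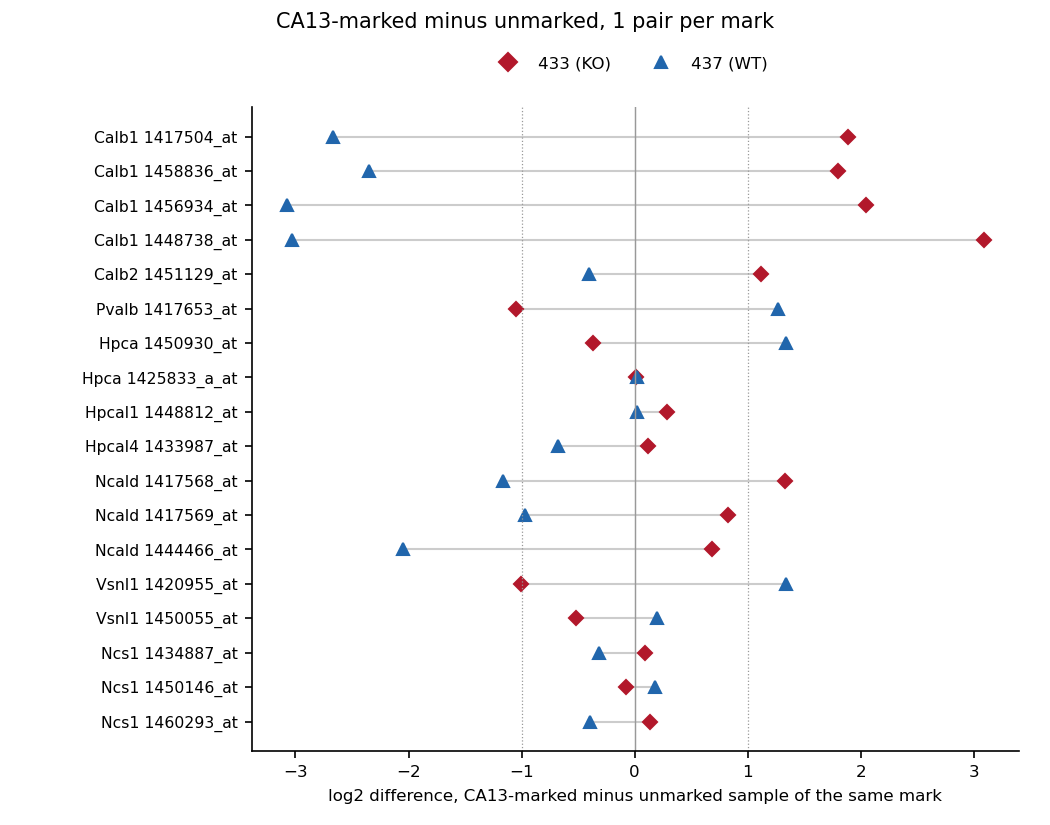
Log2 difference of each of the 18 probe sets between the CA13-marked and the unmarked sample of the same mark, for 433 (KO, diamonds) and 437 (WT, triangles), 1 pair each. Dotted lines mark 2-fold; Calb1 and Ncald lie left for 437 and right for 433, and Pvalb and Vsnl1 1420955_at the reverse.

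Hippocalcin differed between the label series, a pattern noticed after the values were seen. The main Hpca probe set had a log2 level of 12.95 to 13.12 in the KO samples and 12.57 to 13.07 in the WT samples of the smaller series. In the larger series it had 11.20 to 12.18 in the KO samples other than the library labelled 433, which had 13.52, and 11.15 to 11.76 in the WT samples. A limma fit with genotype and series gave a log2 difference, smaller minus larger, of 1.11 (standard error 0.27, adjusted p = 0.0184), and 1.24 (standard error 0.33, adjusted p = 0.0267) for the dimmer Hpca probe set. These were 2 of 18 members higher, against 4.45% of all probe sets, and 0 were lower, against 5.37%. The main Ncald probe set had 0.72 (standard error 0.26, adjusted p = 0.0920). Without the library labelled 433 the Hpca probe sets had 1.24 (standard error 0.17, adjusted p = 0.000541) and 1.28 (standard error 0.34, adjusted p = 0.0225). In that fit 3 of the 18 were higher in the smaller series (5.63% of all probe sets) and 1 was lower (6.47%), with the main Ncald probe set at 0.59 (standard error 0.18, adjusted p = 0.0403) and Calb1 1448738_at at -0.96 (standard error 0.21, adjusted p = 0.00801) added to the Hpca pair. Each series holds KO and WT samples, so KO minus WT could be taken with the series as a term and within each. With the series as a term, KO minus WT was 0.53 (standard error 0.24) and 0.76 (standard error 0.30) for the Hpca probe sets, with an unadjusted p of 0.0450 and 0.0193 and an adjusted p of 1.00 for both. In the same fit Calb1 1448738_at had -0.74 (standard error 0.34, unadjusted p = 0.0476, adjusted p = 1.00).

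Within the larger series the log2 fold change, KO minus WT, of the 2 Hpca probe sets was 0.64 (standard error 0.31) and 0.96 (standard error 0.32, unadjusted p = 0.00986, adjusted p = 1.00), and without the library labelled 433 it was 0.36 (standard error 0.19) and 0.91 (standard error 0.34). Within the 4 samples of the smaller series it was 0.22 (standard error 0.25) and 0.21 (standard error 0.55). Calbindin 1456934_at had -0.81 (standard error 0.40) within the larger series, -0.41 (standard error 0.16) there without the library labelled 433, and -0.50 (standard error 0.23) within the smaller series. The other Calb1 probe sets, 1417504_at, 1458836_at and 1448738_at, had -0.48, -0.60 and -0.97 within the larger series. Without the library labelled 433 they had -0.15, -0.22 and -0.56 there. Within the smaller series they had 0.0022, 0.05 and -0.09 (standard errors 0.22, 0.23 and 0.30). Hpcal4 had -0.34 (standard error 0.16) within the larger series and -0.21 (standard error 0.21) within the smaller series. Calretinin had values of opposite sign, 0.55 (standard error 0.54) within the larger series and -1.24 (standard error 0.29, unadjusted p = 0.00457, adjusted p = 1.00) within the smaller series, where the signals were 199 and 203 in KO samples, against 477 and 565 in WT samples. The difference between the series was not tested.

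**Figure D4:**
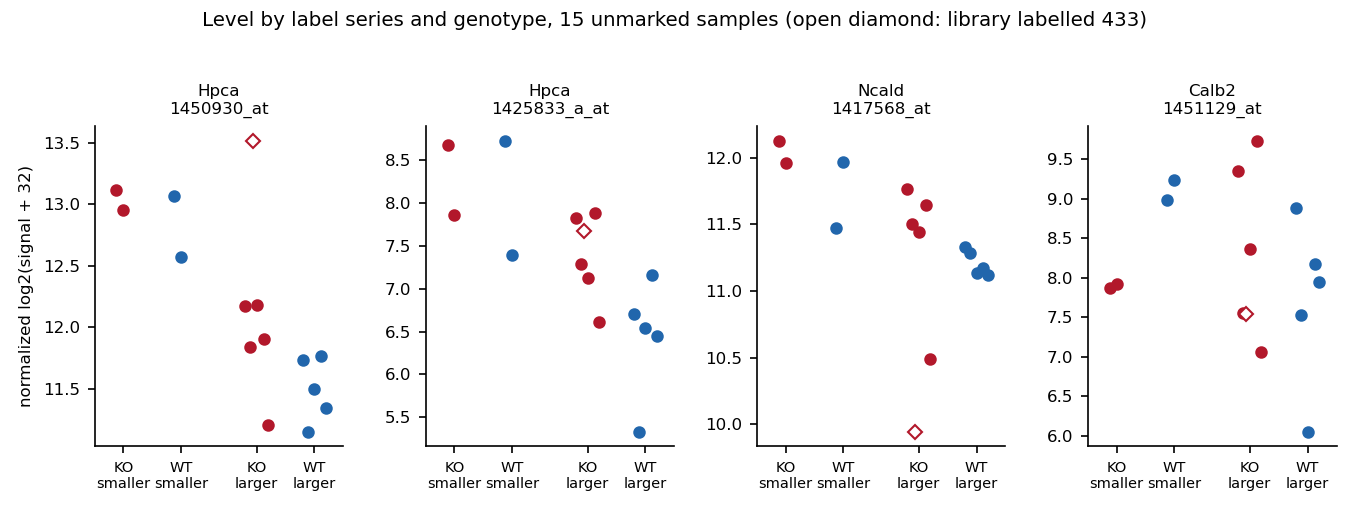
Normalized log2(signal + 32) of both Hpca probe sets, the main Ncald probe set and Calb2 in the 15 unmarked samples, KO and WT within the smaller and the larger label series. The main Hpca probe set lies at 12.57 or above in all 4 samples of the smaller series and at 12.18 or below in the larger series, except the library labelled 433 at 13.52.

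Probe sets of a gene agreed to different degrees. Over the 15 unmarked samples the 6 pairs of Calb1 probe sets had Pearson's r of 0.69 to 0.96, but of -0.02 to 0.72 over the 14 samples without the library labelled 433. The Hpca pair had 0.81 and 0.88, and the first 2 of Ncald 0.81 and 0.65, while the dimmest Ncald probe set had -0.12 and -0.04 with the others (-0.36 and -0.23 without that library). The Vsnl1 pair had 0.49 and 0.17. These values describe probe sets that share arrays and normalization. The log2 ratio of the 3' to the 5' Gapdh control, a measure of RNA quality, was 5.04 to 6.41 in KO and 5.11 to 6.23 in WT, and its part in the disagreement was not tested.

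For each member, the main probe sets of other genes were ordered by their correlation with it over all 17 arrays (8619 or 8620 genes with a mean log2 level of at least 8). Arrays share tissue make-up and normalization, so these are descriptions. Calb1 was most like Sipa1l2 (Pearson's r = 0.97, Spearman's rho = 0.71) and Dock10 (r = 0.97, rho = 0.62), a granule marker, but over the 14 samples without the CA13 mark and the library labelled 433 these were r = 0.53 and 0.29. Ncald was most like Ssbp2 (r = 0.95, rho = 0.88, and r = 0.89 over the 14). Vsnl1 was most like Snhg11 (r = 0.95, rho = 0.90, and r = 0.90 over the 14) and Ppp3cb, a catalytic subunit of calcineurin (r = 0.93, and 0.85). Pvalb was most like Igfbp4 (r = 0.91, and 0.63), and the CA marker Man1a was also among its closest 3 (r = 0.90, and 0.67). Hpca was most like Ndrg3 (r = 0.93, rho = 0.92, and r = 0.95) and Kcnab2 (r = 0.92, and 0.95). For Ndrg3 and Kcnab2 the values over the 14 samples were no lower than over all 17. Thy1, also among the closest 3 of Hpca, had r = 0.92, and 0.89 over the 14. Both label series, between which Hpca differed, are among the 14 samples, and their part in these values was not tested. Calb2 was most like Hadh (r = 0.85), Hpcal4 like Lrpap1 (r = 0.82), Hpcal1 like Zbtb7a (r = 0.81) and Ncs1 like Src (r = 0.77).

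Related calcium genes were read from 5 lists, by the main probe set of each gene. Of 7 other members of the sensor family, 0 passed an adjusted p of 0.05 between KO and WT. At an unadjusted p under 0.05 in limma 1 was lower in KO, against 1.68% of all probe sets. This was recoverin itself (Rcvrn, log2 fold change -0.52, standard error 0.19). The Rcvrn probe set was dim, at a mean log2 level of 6.08 in KO and 6.59 in WT. Both lie below Ncald 1444466_at, at 6.98, which is itself below the median level of all probe sets. The potassium channel partners Kcnip1 to Kcnip4 had -0.10 to 0.26 by their main probe sets. Over all their probe sets the values ran from -0.16 (Kcnip2) to 0.57 (Kcnip1). Of 9 other EF-hand buffers, 0 passed and 1 was lower at an unadjusted p under 0.05 (1.68% of all probe sets), Necab1 (-0.80, standard error 0.29, with 0.12 for its other probe set). Of 8 calmodulin-like genes 0 passed, and those with the smallest p were Cabp7 (0.41, standard error 0.21, with 0.14 for its other probe set, and 0.25 without the library labelled 433) and Cabp5 (-0.35, standard error 0.19, with 0.27 for its other probe set). The main Cabp5 probe set was dim too, at a mean log2 level of 5.83 in KO and 6.18 in WT. Of 13 genes of calmodulin-dependent kinases and calcineurin 0 passed, with Camk4 (0.56, standard error 0.27, the highest of 5 probe sets from -0.01) and Ppp3r1 (0.28, standard error 0.14, with -0.09 for its other probe set) first. Of 3 small calmodulin-binding proteins 0 passed, with Pcp4 at -0.19 (standard error 0.14) and Gap43 at -0.38 (standard error 0.30). Pcp4 had -0.06 and Gap43 -0.58 (unadjusted p = 0.0353) without the library labelled 433, so that 1 of the 3 was then lower at an unadjusted p under 0.05 (1.76% of all probe sets). The median log2 fold changes of the lists lay between -0.19 and 0.13. The CA13-marked sample of 437 was set against its unmarked partner for the 40 genes of the 5 lists. At least 2-fold lower were 3 (6.61% of all probe sets), and at least 2-fold higher were 5 (6.55%). In the pair of 433 it was 4 lower (6.05%) and 4 higher (5.94%). The list counts rest on main probe sets, while the shares cover all probe sets. In 4 genes the pairs differed at least 2-fold in opposite directions, against 3.8% of all probe sets. Of these, Camk4 had log2 differences, CA13-marked minus unmarked, of 1.85 in the pair of 437 and -1.27 in that of 433, and Cabp7 had 1.20 and -1.10. Camk2g, with -1.64 and 1.11, and Guca1b, with -2.22 and 1.07, lay the other way.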

How the data were processed

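RNA of laser-captured brain tissue, dentate gyrus by the paper's methods, was measured on Affymetrix mouse expression arrays in 17 samples. The authors deposited signal intensity per probe set on a linear scale. The submitters' processing notes name MAS5, with its version not given in the sources used here, whereas the paper's methods name RMA and SAM, so the deposited values took the path for linear signals. After removal of 64 control probe sets, log2(signal + 32) was taken, which understates the change of dim probe sets, and the 15 unmarked arrays (or all 17 for the CA13-marked samples) were quantile normalized. Genotype alone was fitted in limma 3.58.1 (R 4.3.3), with eBayes and an intensity trend, without a filter on dim probe sets, and adjusted by Benjamini-Hochberg over 45037 probe sets. The number of arrays limits the precision. Single probe sets also had exact permutation tests. The limma fit of KO and WT was tested on simulated data with independent noise, without a label series or an outlying library. The other steps were not tested in this way.

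The 9 genes, the marker lists and the related lists were chosen with earlier results of these data known. Every probe set of a member is named, the 3 genes most like each were ranked by correlation, and up to 2 genes with the smallest p were named in each related list. Kcnip1 to Kcnip4 were added for their family. For 9 of the listed genes no probe set carries that symbol alone, and 932 probe sets with several symbols were not named. Alternatives covered scaling, pseudocount, a filter, samples, label series, RNA quality, trend, array weights and leaving out each sample.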

Additional observations from a re-analysis of the deposited data

Results flagged for a closer look

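A single sample stood far from the others of its group in 8 of 36 groups tested. For independent groups chance gives about 1 in 20. The 36 groups are the 18 probe sets in KO and in WT, read on the same 15 arrays, so they are not independent. The count can therefore not be read as an excess over chance. Of the 8 outlying values, 6 are the library labelled 433. It was lowest in KO for all 4 Calb1 probe sets, with log2 levels of 12.10 (1417504_at), 7.76 (1458836_at), 7.49 (1456934_at) and 6.45 (1448738_at), and highest for Pvalb (9.75) and Vsnl1 1420955_at (14.21). The other two are KO 384, lowest for Hpcal4 (12.79, with the nearest KO sample at 13.31), and WT 393, highest for Ncald 1417568_at (11.97, with the nearest WT sample at 11.47). The library labelled 433 also has the granule and CA marker levels given above.

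The CA13-marked and the unmarked sample of a mark differed in opposite directions in the 2 genotypes for 7 probe sets, by at least 2-fold each way, against 3.8% of all probe sets. The log2 differences, CA13-marked minus unmarked, in the 433 (KO) pair and the 437 (WT) pair were 1.88 and -2.66 for Calb1 1417504_at, 1.80 and -2.35 for 1458836_at, 2.04 and -3.08 for 1456934_at, and 3.09 and -3.03 for 1448738_at. They were -1.05 and 1.27 for Pvalb, 1.33 and -1.16 for Ncald 1417568_at, and -1.01 and 1.34 for Vsnl1 1420955_at. All Calb1 probe sets are thus among the 7. By the main probe set of each gene, 11 of the 12 granule markers and 7 of the 12 CA markers also differed at least 2-fold in opposite directions. With 1 pair each, genotype and pair cannot be told apart, and the difference was not tested.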

How the results depend on the processing

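No alternative called a member: the count stayed at 0 of 18, also without each sample in turn, and the smallest adjusted p over these fits was 0.993 (array weights, Hpca 1425833_a_at). Over all probe sets 6 were called, against 3 within the larger label series, 2 there without the library labelled 433 (chosen after seeing the data), 0 within the smaller series (limma, 4 samples), and 3 to 8 without each sample. Of 261 alternative log2 fold changes of the main probe sets, 225 kept their direction and 36 did not, all of values near 0 or in the 4 samples of the smaller series. The 261 hold the fit without the library labelled 433 both by that name and as a single sample left out. Ncs1, at -0.00, became 0.0037 with a larger pseudocount, 0.0037 with arrays scaled to one median, 0.0074 as deposited, 0.093 within the larger series, 0.0043 there without the library labelled 433, 0.018 with RNA quality as a covariate, 0.011 with the CA13-marked 433 in its place, and 0.020 with array weights. Ncald, at 0.01, became -0.013 with arrays scaled to one median, -0.0067 as deposited and -0.078 within the larger series. Within the smaller series Calb1 was 0.0022, Calb2 -1.24 and Hpcal1 -0.32. Without each sample in turn Calb2 ranged from -0.28 to 0.25, Hpcal1 from -0.11 to 0.28, Ncald from -0.11 to 0.21 and Ncs1 from -0.070 to 0.083. Without the WT sample 437, 0 members had an unadjusted p under 0.05, and with the label series as a term 5 had. The count of members at least 2-fold lower in the CA13-marked 433 was 1 with a larger pseudocount or as deposited, against 2. With a larger pseudocount the count at least 2-fold higher there was 5, against 6. In the CA13-marked 437 the count at least 2-fold lower, 6, also changed. It was 8 with a pseudocount of 1, 5 with a larger one and 7 with arrays scaled to one median. Of 99 alternative values of CA13-marked minus unmarked, 95 moved by less than the spread between replicates and 4 by more, namely Hpcal4 in the pair of 433, at -0.14 with arrays scaled to one median, against 0.12, and in the pair of 437, with the mean of the 7 WT samples in place of 1, Ncs1 at 0.19, against -0.31, Hpcal4 at -0.39, against -0.68, and Calb1 at -2.29, against -2.66. A filter at the median level left 16 of 18, without Ncald 1444466_at and Ncs1 1460293_at. The label series difference without the library labelled 433 was also chosen after seeing the data. No paired analysis was possible because the labels give no replicate numbers shared between KO and WT.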
